A study of Homo sapiens with 8 samples.

Results

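The Hippo pathway and its outputs were followed through 35 of the 19974 protein-coding genes on chromosomes 1 to 22 and X. The 35 genes were listed by name, with earlier results of these data known. They were grouped as 22 upstream kinases, adaptors, scaffolds and cadherins, 8 genes of the transcriptional module (YAP, TAZ, the TEADs and their VGLL cofactors) and 5 target genes. All 35 were found by symbol in RefSeq's GRCh38.p14 genes, and coordinates are in hg38. For each gene, the bases covered by H3K4me1 peaks were counted over its record plus 5000 bases beyond each end.

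The cells were MDA-MB-231, a widely used triple-negative breast cancer line, either with ARID1A knocked out or as control cells. The ARID1A protein belongs to SWI/SNF, a complex that remodels chromatin. Each genotype had 2 samples immunoprecipitated for H3K4me1 and 2 input samples, 8 in all, and each genotype has 1 deposited list of peaks called over its input. The knockout list held 73600 peaks on the chromosomes used and the control list 82994, covering 176 and 183 Mb. The sources used here do not say whether the knockout cells were a single clone or how they were made. Read depth is unknown, and with 1 list per genotype no difference could be set against a spread between replicates. Every difference given here therefore describes these lists and carries no test. A histone mark does not measure expression, so neither the cell type nor the loss of ARID1A could be checked from marker levels.

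In the Hippo pathway, the kinases MST2 and MST1 (genes STK3 and STK4), held by the adaptor SAV1, activate the kinases LATS1 and LATS2 together with MOB1 proteins. LATS kinases phosphorylate the coactivators YAP and TAZ (genes YAP1 and WWTR1), which are then kept out of the nucleus. In the nucleus YAP and TAZ bind TEAD transcription factors, mostly at distal enhancers, and switch on genes such as CCN1, CCN2 and ANKRD1. Monomethylation of lysine 4 on histone H3 (H3K4me1) marks enhancers and the flanks of active promoters, whose centres carry other methylation states. SWI/SNF complexes that contain ARID1A have been described in other cells as partners that restrain YAP and TAZ.

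Promoter sequences are shown for 6 start sites at which the peak lists bear on the promoter. Peaks also reached promoters that are not shown, such as entries of LATS1, TAOK3 and AMOTL2 without a TEAD match. At CCN2 and ANKRD1 the promoter lay in a gap between flanking peaks of both lists, at an inner start site of AJUBA a peak of both lists covered all 300 bases, at one of AXL a knockout peak covered 300 and a control peak 188, at MOB1A only a knockout peak did, and at VGLL3 only a control peak did. Each runs 5′ to 3′ from 250 bases before to 50 bases after the start site, from RefSeq (GRCh38.p14), and capitals mark CATTCC or its complement GGAATG, the core of the TEAD motif.
CCN2 (chr6:131951323-131951622, minus strand): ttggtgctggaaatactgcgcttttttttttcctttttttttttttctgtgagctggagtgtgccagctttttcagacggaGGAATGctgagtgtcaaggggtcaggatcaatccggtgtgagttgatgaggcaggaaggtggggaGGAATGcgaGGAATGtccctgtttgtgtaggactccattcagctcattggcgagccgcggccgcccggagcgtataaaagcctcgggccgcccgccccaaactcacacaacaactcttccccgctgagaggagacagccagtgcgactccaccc
ANKRD1 (chr10:90921038-90921337, minus strand): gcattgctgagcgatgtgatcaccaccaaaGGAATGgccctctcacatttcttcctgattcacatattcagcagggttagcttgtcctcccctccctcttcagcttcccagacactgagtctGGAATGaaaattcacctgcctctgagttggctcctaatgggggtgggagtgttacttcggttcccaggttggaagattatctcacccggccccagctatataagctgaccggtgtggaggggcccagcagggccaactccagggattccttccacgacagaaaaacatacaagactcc
AXL, inner start site (chr19:41226505-41226804, plus strand): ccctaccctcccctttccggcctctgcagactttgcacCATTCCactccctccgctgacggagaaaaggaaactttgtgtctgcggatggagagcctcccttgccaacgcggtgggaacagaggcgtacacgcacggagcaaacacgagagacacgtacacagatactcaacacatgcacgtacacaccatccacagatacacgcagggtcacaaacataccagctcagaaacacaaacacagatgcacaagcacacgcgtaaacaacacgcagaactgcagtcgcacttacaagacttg
AJUBA, inner start site (chr14:22976793-22977092, minus strand): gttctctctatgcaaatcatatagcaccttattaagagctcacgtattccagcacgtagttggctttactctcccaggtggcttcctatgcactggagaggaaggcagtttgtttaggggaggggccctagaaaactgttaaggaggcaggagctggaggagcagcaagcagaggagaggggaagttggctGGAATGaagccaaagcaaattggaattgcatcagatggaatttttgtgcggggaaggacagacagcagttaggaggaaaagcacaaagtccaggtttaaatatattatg
MOB1A (chr2:74178830-74179129, minus strand): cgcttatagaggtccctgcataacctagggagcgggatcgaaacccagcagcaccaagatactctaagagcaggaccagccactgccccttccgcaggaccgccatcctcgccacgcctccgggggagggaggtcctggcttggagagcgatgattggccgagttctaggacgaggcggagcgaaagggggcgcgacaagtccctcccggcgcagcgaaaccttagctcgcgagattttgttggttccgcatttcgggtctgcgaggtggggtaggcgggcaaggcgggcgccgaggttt
VGLL3 (chr3:86991100-86991399, minus strand): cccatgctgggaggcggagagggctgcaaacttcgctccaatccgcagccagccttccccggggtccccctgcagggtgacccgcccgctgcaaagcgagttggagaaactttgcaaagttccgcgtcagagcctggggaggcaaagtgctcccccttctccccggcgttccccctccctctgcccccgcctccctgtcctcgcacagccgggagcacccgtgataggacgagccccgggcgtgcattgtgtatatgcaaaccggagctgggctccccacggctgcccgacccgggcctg

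The CCN2 promoter held 3 such matches, with first bases at -169, -104 and -95 from the start site, and the ANKRD1 promoter held 2, at -220 and -128. The AXL and AJUBA inner promoters held 1 each, and those of MOB1A and VGLL3 held none. Promoters of 27 of the 35 genes were in the table. STK3, FAT4, DCHS1, LIMD1, TEAD1, TEAD4, CCN1 and CRIM1 had no entry. Taking for each gene the entry nearest the end of its record, 6 of 27 promoters (22.2%) held CATTCC on either strand, against 11.8% of 15812 protein-coding genes. Over all 42 entries of these genes 10 (23.8%) held it, so the 6 promoters shown do not stand for the others. The AP-1 motif TGANTCA, searched the same way and counted separately even where it overlapped a TEAD match, was in 3 of 27 (11.1%), against 5.70%. A match describes letters in this window and does not show binding.

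Nearly all of these genes carried H3K4me1 in both genotypes. Peaks of both lists lay at 34 of the 35 genes, the exception being TEAD2, which had 1 control peak and no knockout peak. Of all 19974 protein-coding genes, 16814 had a peak in at least 1 list. The share of all genes with peaks in both lists was not computed. The median gene had 22196 covered bases in the knockout list and 22854 in the control list, whereas over all protein-coding genes the medians were 3686 and 3954.5. The genes are long, with a median record of 91591 bases against 24170.5, which by itself allows more covered bases. Over the 35 genes together, 68.2% of the bases covered in either list were covered in both, against 56.9% over all protein-coding genes.

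More of the 35 genes had lower than higher coverage in the knockout list. With a difference of at least 1000 bases as the call, 9 of 35 genes (25.7%) were more covered in the knockout list, against a background of 20.2% of all genes. In the same comparison 18 of 35 (51.4%) had fewer, against a background of 30.0%. Wide coverage makes such a call easier. Among the 3931 genes with a mean of at least 10000 covered bases the background was 32.5% more and 51.7% fewer, and of the 24 Hippo and YAP-TEAD genes of that size 5 (20.8%) had more and 13 (54.2%) fewer. The share with fewer was thus near that of other widely covered genes. The median difference of the 35 genes was -1039 bases, that of the 24 was -4077.5 and that of the 3931 was -1201. The sum of covered bases over the 35 genes was 0.889 times as large in the knockout list as in the control list, and over all genes it was 0.942 times as large.

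**Figure D1:**
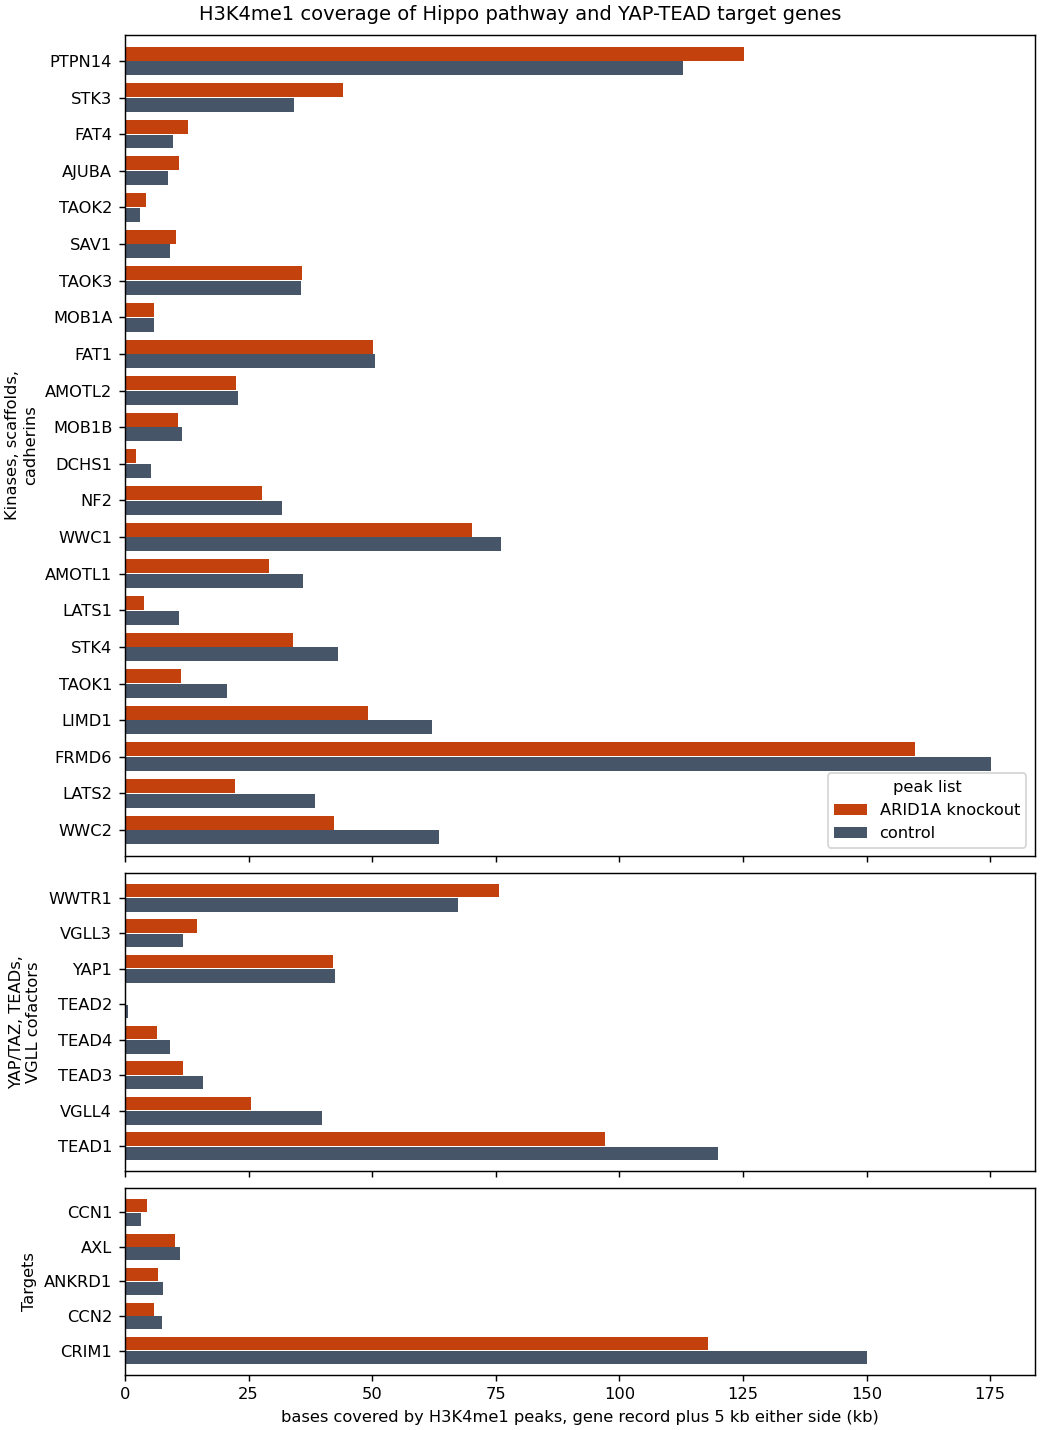
Bases covered by H3K4me1 peaks (kb, axis from 0) at each of the 35 genes, with the knockout list in orange above the control list in grey and 1 value per list. FRMD6 was the most covered gene in both lists, TEAD2 had no knockout coverage, and 18 genes had at least 1000 fewer bases in the knockout list.

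The direction of this balance depended on which measure of strength limited the peaks. When both lists were limited to −log10 q values of 5 or more (the authors' measure of a peak's strength over its input), 21 of the 35 genes (60.0%) had at least 1000 bases more in the knockout list and 11 (31.4%) had fewer. The background at that cutoff was 26.7% more and 17.7% fewer over all genes. Of the 24 widely covered Hippo and YAP-TEAD genes, 14 (58.3%) had more and 9 (37.5%) fewer, against 48.8% and 33.6% of the 3931. The knockout list as a whole held more peaks than the control list at that cutoff, 27571 against 23884. With the 25000 strongest peaks of each list, an alternative added after the data were seen, 19 genes had more and 12 fewer. The backgrounds were 22.0% and 21.5% over all genes. Of the 24 widely covered genes, 13 (54.2%) had more and 10 (41.7%) fewer, against 41.1% and 40.3% of the 3931. With peaks of at least 4-fold enrichment the full-list direction remained, with 11 genes (31.4%) more covered and 14 (40.0%) less covered in the knockout list. Over all genes the shares were 14.5% and 19.4%. Of the 24 widely covered genes, 8 (33.3%) had more and 13 (54.2%) fewer, against 31.0% and 40.2% of the 3931. When a call instead needed a difference of 20% of the larger coverage, 4 of the 35 genes had more and 13 fewer, against 19.9% and 29.7% over all genes. Of the 24 widely covered genes, 2 (8.33%) had more and 8 (33.3%) fewer, against 16.0% and 27.5% of the 3931. Of the 27 genes called in the full lists, 11 were called in the same direction in each of the 7 other peak sets and window sizes that were run. The 8 with less coverage in the knockout list were AMOTL1, CRIM1, LIMD1, NF2, STK4, TEAD3, VGLL4 and WWC1, and the 3 with more were PTPN14, VGLL3 and WWTR1. The share of all genes that kept their call in this way was not computed. The 20% call was not among the 7. AMOTL1, NF2, WWC1, PTPN14 and WWTR1 fell short of it, with knockout-to-control ratios of 0.812, 0.869, 0.921, 1.11 and 1.12. VGLL3 narrowly did too, differing by 2904 of 14551 bases.

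**Figure D2:**
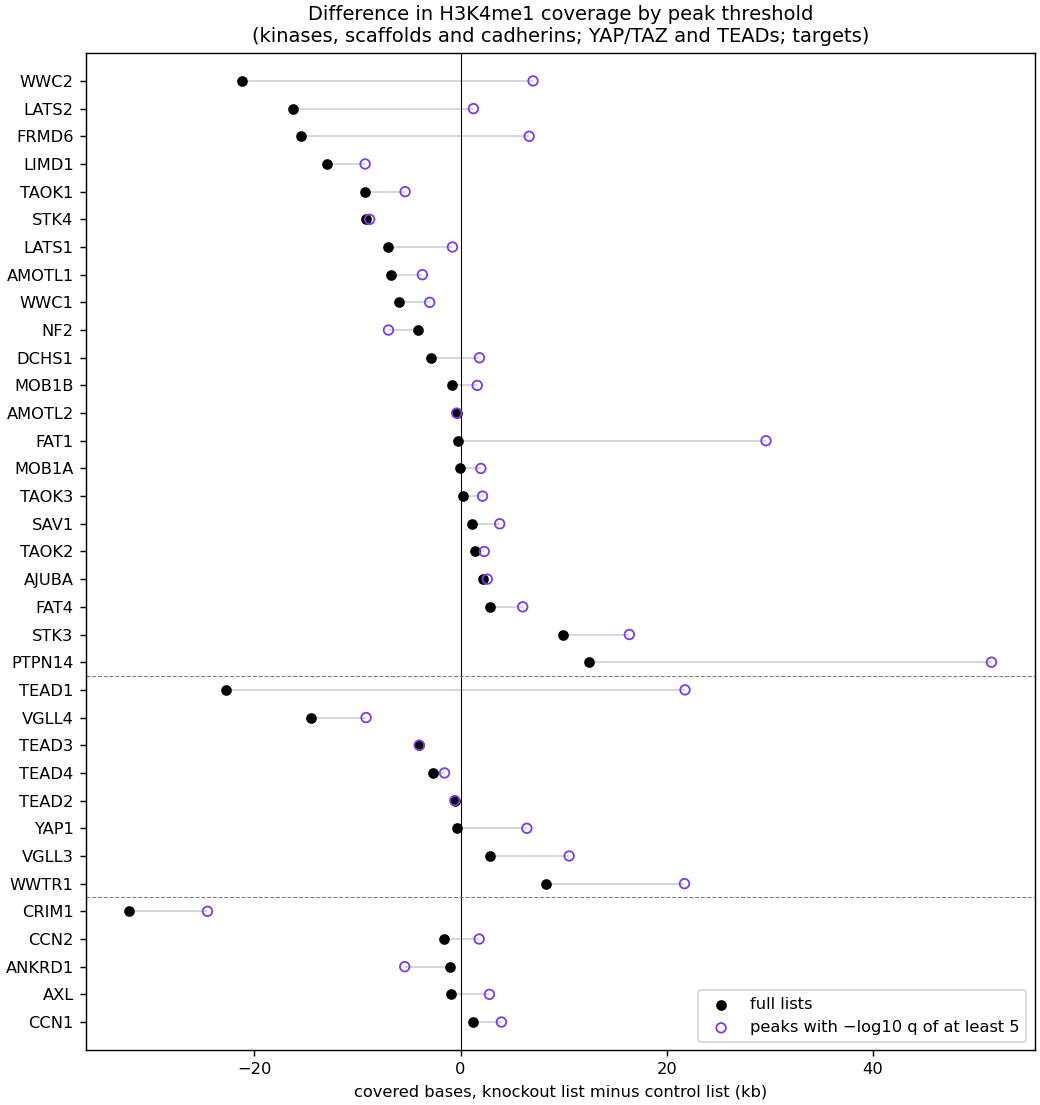
Difference in covered bases (knockout list minus control list, kb) for each gene, with filled points for the full lists and open points for peaks past the −log10 q cutoff of 5; dashed lines separate the upstream genes, the YAP/TAZ and TEAD genes and the targets. The points of TEAD1, WWC2 and FRMD6 lie on opposite sides of 0, those of CRIM1 are both below it and those of PTPN14 both above it.

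The input background implied by the lists differed between genotypes around some of these genes. Over all peaks its median was 4.61 in the knockout list and 3.7 in the control list. The part of this gap in what the −log10 q and fold cutoffs kept was not tested. Around each gene the background was compared as the ratio of knockout to control medians in a stretch of 5 Mb, divided by the same ratio over all peaks. For 29 of the 35 genes this relative ratio lay between 0.916 and 1.07. It was 1.41 at TEAD1, 1.29 at DCHS1 and 1.28 at PTPN14, and 0.776 at VGLL3, 0.747 at VGLL4 and 0.672 at TEAD2. Its part in the differences at these 6 genes was not tested. Another protein-coding gene reached into the window of 16 of the 35 genes, and peaks there were counted for both.

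Among the core kinases, coverage was lower in the knockout list at LATS1, LATS2 and STK4 and higher at STK3. LATS1 (chromosome 6, 149658153 to 149718101) had 3876 covered bases in knockout cells and 10956 in control cells, in 3 peaks each. Only 18.2% of the LATS1 bases covered in either list were covered in both. The largest part of that difference was a control peak of 7233 bases that had no overlap in the knockout list, whose nearest peak lay 993 bases away. That control peak was weak (−log10 q 1.7), and at the −log10 q cutoff of 5 LATS1 kept 0 knockout and 782 control bases.

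LATS2 (chromosome 13, 20973036 to 21061586) had 22196 knockout bases and 38476 control bases, in 7 peaks each. Toward its start site, a control peak of 12212 bases was met by 2 knockout peaks sharing 6012 of its bases. One of those 2, of 5659 bases, was the strongest knockout peak at LATS2 (−log10 q 11.1), and at a cutoff of 5 the order turned, with 11315 knockout and 10063 control bases. At 4-fold enrichment it did not, with 6451 and 10063. STK4, which encodes MST1, had 33964 knockout and 43121 control bases. Its sign held at the cutoff of 5, with 33443 and 42259 bases. STK3, which encodes MST2, went the other way with 44144 knockout and 34164 control bases, in 22 and 20 peaks spread over a long record. Restricted to peaks of at least 4-fold enrichment, STK3 turned to 4608 knockout and 6290 control bases.

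The adaptors of these kinases differed less in the full lists. SAV1, the scaffold of MST kinases, had 10317 knockout and 9182 control bases, and a knockout peak inside it (chromosome 14, 50650585 to 50652984) was the second strongest of the 25 knockout peaks without control overlap, at a −log10 q of 3.3. MOB1A, a coactivator of LATS kinases, had 5890 knockout and 5956 control bases, and its paralogue MOB1B had 10714 and 11491, differences under 1000 bases. At MOB1A, however, the knockout peak of 4547 bases ran over the start site shown above, whereas control peaks of 2573 and 524 bases stood on either side of it. SAV1 kept 3799 knockout and 0 control bases at the −log10 q cutoff of 5, MOB1A 4547 and 2573, and MOB1B 1623 and 0. With 4-fold enrichment SAV1 kept 0 in both lists, MOB1A 4547 knockout and 0 control bases, and MOB1B 1623 and 0.

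The TAO kinases, which activate MST kinases, each behaved differently. TAOK1 had 11413 knockout bases in 6 peaks and 20644 control bases in 11 peaks, and none of its knockout peaks lacked control overlap while 5 control peaks lacked knockout overlap. TAOK2 had 4330 knockout and 2947 control bases in a window reached by 4 other protein-coding records, HIRIP3, INO80E and TMEM219 among them, and without the flanks the order turned to 1739 and 2026 bases. TAOK3 had 35788 and 35554 bases.

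Membrane scaffolds that activate the kinases were mostly less covered in knockout cells. NF2, which encodes merlin, had 27659 knockout and 31811 control bases. A control peak of 23364 bases inside NF2 was met by 2 knockout peaks, which shared 18909 of its bases. WWC1, which encodes the scaffold KIBRA, had 70121 knockout and 76111 control bases, and its paralogue WWC2 had 42381 and 63554. WWC2 (chromosome 4, 183099257 to 183320777) showed the largest deficit of the upstream genes, with 5 control peaks and no knockout peak lacking overlap, but turned at the −log10 q cutoff of 5, with 25503 knockout and 18470 control bases. FRMD6, which encodes willin and is related to merlin, had 159697 knockout and 175197 control bases, likewise turning at that cutoff to 114874 and 108212. At 4-fold enrichment FRMD6 did not turn (26933 and 34337 bases), whereas WWC2 did (11932 and 2559).

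FRMD6 (chromosome 14, 51396431 to 51730727) held the widest upstream peak of the control list, 62020 bases at 51556641 to 51618660. In the knockout list the same stretch held 3 peaks that shared 55629 of those bases, the widest being 26110 bases. AMOTL1, which encodes an angiomotin-like protein that binds YAP, had 29183 knockout and 35928 control bases, and its paralogue AMOTL2 had 22481 and 22854. AMOTL2 was the gene with the most similar lists, with 90.8% of its covered bases in both, and peaks filled 74.8% of its window in knockout cells and 76.0% in control cells.

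LIM-domain proteins that inhibit LATS kinases split in direction. LIMD1 had 49198 knockout and 62112 control bases, and a control peak of 29153 bases there was met by 2 knockout peaks, the wider of 15995 bases. AJUBA had 10973 knockout and 8792 control bases, in 3 peaks each, with 77.2% of its covered bases in both lists. With 50000 bases on either side AJUBA had 25493 knockout and 27408 control bases.

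PTPN14, a phosphatase gene whose product binds YAP, had the largest excess among the 35 genes. It had 125254 knockout bases in 13 peaks and 112824 control bases in 18 peaks (chromosome 1, 214348700 to 214551602). A knockout peak of 24316 bases within it overlapped 4 control peaks, which shared 19241 of its bases. At the −log10 q cutoff of 5 the gap widened to 113164 knockout and 61667 control bases, where the implied background ratio was 1.28.

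The large cadherins at the top of the pathway were covered unevenly. FAT1 had 50259 knockout and 50496 control bases, near equal in the full lists. The −log10 q cutoff of 5, however, left 37362 knockout and 7734 control bases there. The strongest knockout peak without control overlap among all 35 genes lay inside FAT1 (chromosome 4, 186606142 to 186607453, −log10 q 4.1), 14014 bases from the nearest control peak. FAT4 had 12664 knockout and 9774 control bases. DCHS1, which encodes the cadherin that FAT4 binds, had 2299 knockout and 5207 control bases, with 1 of its 2 knockout peaks and 3 of its 4 control peaks lacking overlap. Above the −log10 q cutoff DCHS1 kept 1838 knockout bases and 0 control bases, and at 4-fold enrichment it kept 0 in both. Its implied background ratio was 1.29.

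**Figure D3:**
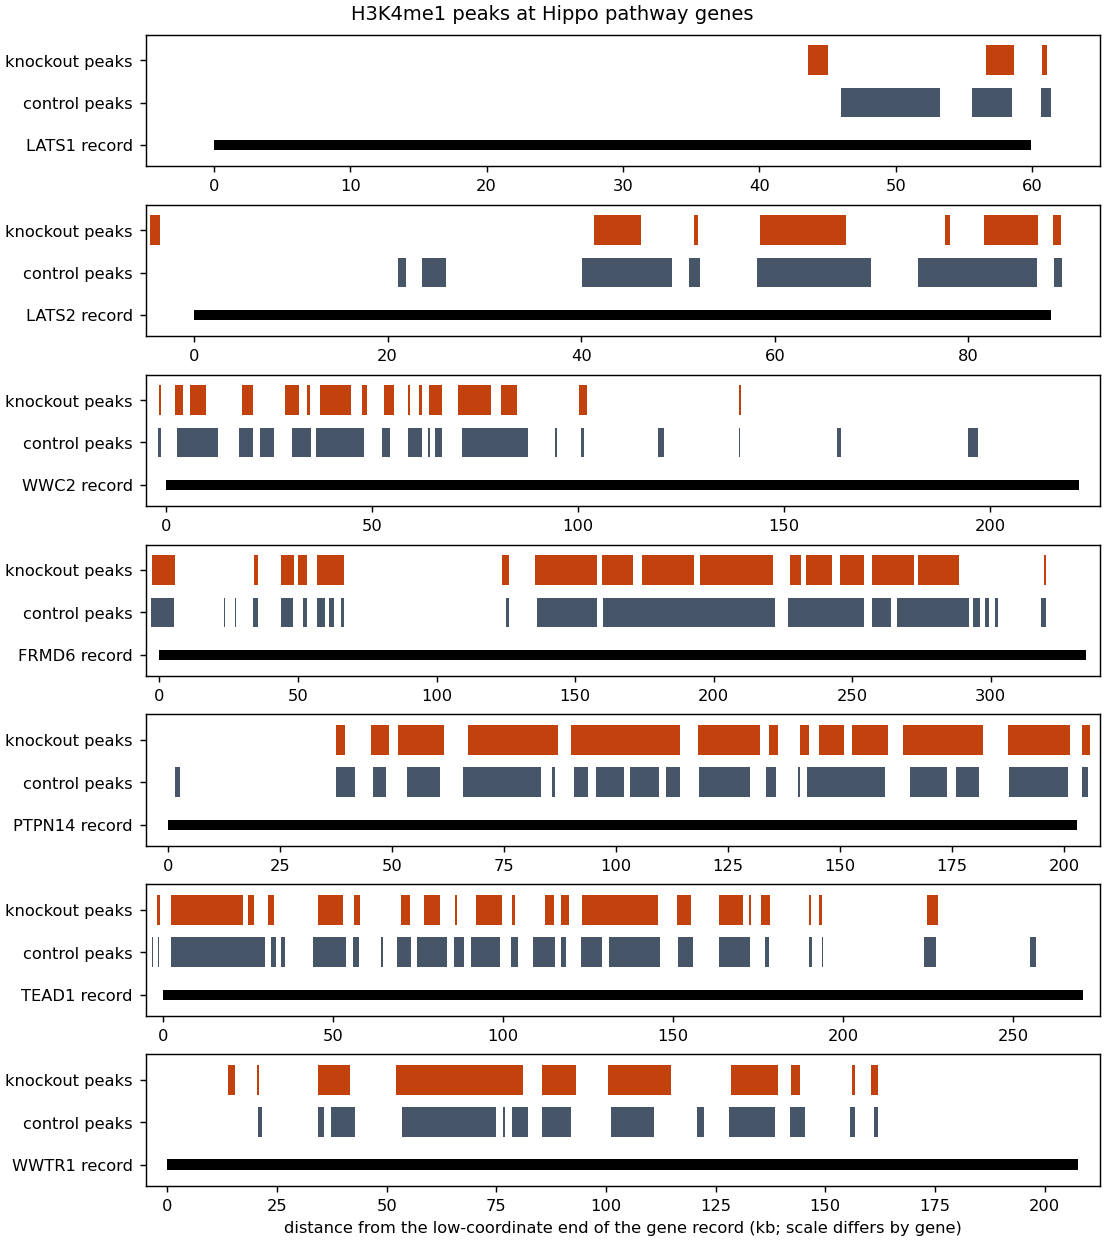
Peaks of the knockout list (orange) and the control list (grey) at 7 Hippo pathway genes, drawn against distance from the low-coordinate end of the gene record (kb, black bar), with a scale of its own for each gene. The long control peaks of FRMD6 appear as several knockout peaks, and the control peak of 7233 bases at LATS1 has no knockout peak over it.

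Of the coactivator genes, YAP1 was covered to nearly the same extent in both lists and WWTR1 more in the knockout list. YAP1 (chromosome 11, 102110447 to 102233424) had 42147 knockout bases in 10 peaks and 42478 control bases in 11 peaks. A knockout peak of 13688 bases inside YAP1 overlapped 2 control peaks of 8267 and 3773 bases. A second broad peak near the start of YAP1 measured 11465 bases in the knockout list and 9400 bases in the control list, and all 9400 were shared. WWTR1, which encodes TAZ (chromosome 3, 149517235 to 149724788), had 75553 knockout and 67308 control bases. Its widest knockout peak, 29183 bases, overlapped 3 control peaks, the widest of 21453 bases. At the −log10 q cutoff of 5, both coactivator genes were more covered in the knockout list, 37061 against 30627 at YAP1 and 70772 against 49049 at WWTR1.

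All 4 TEAD genes, which encode the DNA-binding partners of YAP and TAZ, had fewer covered bases in the knockout list, TEAD2 by less than 1000. A deficit of at least 1000 bases was found at 30.0% of all genes and at 51.7% of widely covered genes. TEAD1 (chromosome 11, 12674421 to 12944737) had 97172 knockout and 119877 control bases, the largest deficit of this module, in 21 and 24 peaks. The −log10 q cutoff of 5 turned the order to 78541 knockout and 56767 control bases, but 4-fold enrichment left 14924 and 43578, and its implied background ratio was the highest of the 35 genes. TEAD3 had 11756 knockout and 15759 control bases, and these values did not change at the cutoff of 5. A control peak of 11900 bases in TEAD3 was met by 2 knockout peaks sharing 7372 of its bases. TEAD4 had 6509 and 9147 bases. TEAD2 was nearly bare, with 0 knockout and 555 control bases.

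The single TEAD2 peak (chromosome 19, 49363984 to 49364538) was the strongest control peak without knockout overlap at any of the 35 genes. Its −log10 q of 11.8 exceeded that of 95.9% of control peaks, and the nearest knockout peak lay 44053 bases away. The middle of this peak lay at -1845 bases from the TEAD2 start site, in a window that CD37, DKKL1 and SLC6A16 also reach. The implied background ratio around TEAD2 was the lowest of the 35 genes.

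The vestigial-like cofactors, which compete with YAP and TAZ for TEADs, differed in direction. VGLL4, a repressor of YAP-dependent transcription, had 25401 knockout and 39871 control bases, and a deficit remained at the −log10 q cutoff with 13069 and 22229. VGLL3 had 14551 knockout and 11647 control bases. At VGLL3 a control peak of 9316 bases ran across the start site shown above, while the knockout list had peaks of 6602 and 5099 bases on either side of it, the nearer 1066 bases away. At the −log10 q cutoff of 5, VGLL3 kept 10537 knockout and 0 control bases. The implied background ratios there were 0.747 and 0.776, lower than at most of the 35 genes.

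Of the 5 target genes, 3 had at least 1000 fewer bases in the knockout list, 1 had more and 1 differed by less, where 30.0% of all genes had fewer and 20.2% more. CRIM1, which encodes a transmembrane protein that binds growth factors of the BMP family, accounted for most of the difference. It had 117872 knockout bases in 8 peaks and 149984 control bases in 9 peaks (chromosome 2, 36355778 to 36551135). A control peak of 105826 bases, at 36359443 to 36465268, was the widest peak at any of the 35 genes. The knockout list covered 93362 of those bases (88.2%) with 4 separate peaks of 56016, 4305, 14814 and 19139 bases. The far end of the CRIM1 record was covered mainly in the control list, where 3 peaks of 1186, 952 and 4516 bases had no knockout overlap. At the −log10 q cutoff CRIM1 kept 111126 knockout and 135667 control bases. Its relative background ratio was 0.961.

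CCN2 and CCN1 encode matricellular proteins that are the standard readouts of YAP activity. CCN2 (chromosome 6, 131948176 to 131951372) had 5899 knockout and 7509 control bases in 2 peaks each. The upstream peak measured 3958 bases in the knockout list and 4087 in the control list, with 3924 bases shared. The downstream peak measured 1941 and 3422 bases. Between them lay the promoter with its 3 TEAD matches, 465 bases from the nearest knockout peak and 499 from the nearest control peak, counted from the start site. At the −log10 q cutoff of 5 the downstream control peak was lost and CCN2 had 5899 knockout and 4087 control bases. At 4-fold enrichment CCN2 kept 0 knockout and 4087 control bases.

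CCN1 (chromosome 1, 85580761 to 85583950) had 4517 knockout and 3302 control bases, in 3 peaks each. The peak over its high-coordinate end measured 3370 bases in the knockout list and 2428 in the control list, and all 2428 were shared. A small peak on its low-coordinate side measured 720 and 323 bases. The widest of the 3, with 8859 knockout and 8298 control bases, lay mostly outside the window and was the strongest control peak there (−log10 q 14.3). With 50000 bases on either side, CCN1 had 47393 knockout and 47918 control bases.

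ANKRD1, which encodes an ankyrin repeat protein of muscle that YAP induces in many cell types, had 6636 knockout and 7675 control bases. Its gene body peak measured 4859 bases in the knockout list, all shared with the control peak of 5362 bases, and its upstream peak measured 1777 and 1826 bases. A control peak of 487 bases at the far end had no knockout overlap. At a −log10 q cutoff of 5 ANKRD1 kept 1777 knockout and 7188 control bases, and at 4-fold enrichment 1777 and 1826. The upstream peak was the stronger one in each list, with a −log10 q of 8.2 in the knockout list and 12.4 in the control list. AXL, a receptor tyrosine kinase gene, had 10097 knockout and 11057 control bases. The −log10 q cutoff of 5 left AXL 9373 knockout and 6569 control bases, and 4-fold enrichment left it 0 and 6011. Its knockout peak of 8840 bases overlapped 2 control peaks of 2342 and 6011 bases, which shared 5691 of its bases and ran past its far edge.

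**Figure D4:**
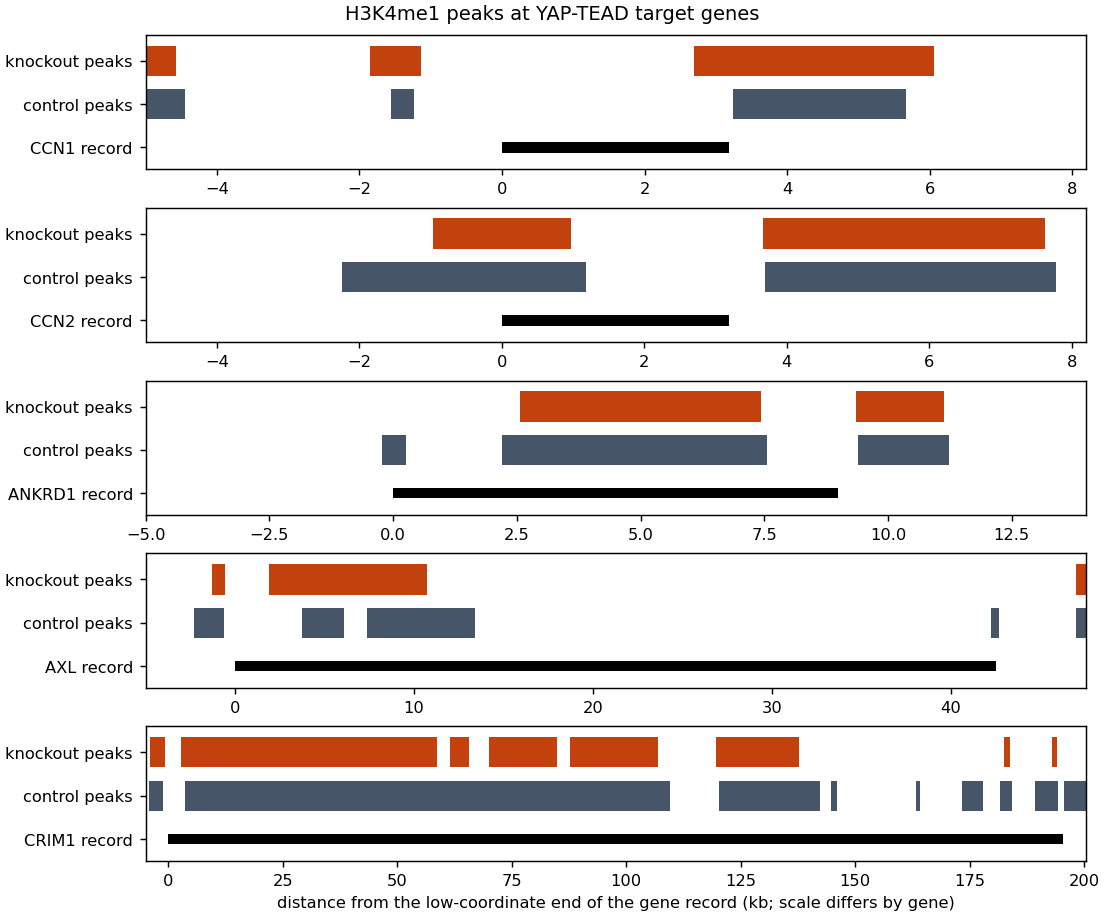
Peaks of the knockout list (orange) and the control list (grey) at the 5 target genes, against distance from the low-coordinate end of the gene record (kb, black bar), with a scale of its own for each gene and peaks clipped at the window. CCN2 and ANKRD1 have 2 flanking peaks at nearly the same places in both lists, and the control peak of 105826 bases at CRIM1 appears as 4 knockout peaks.

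Peaks at these genes were wide. Of 265 knockout peaks in the windows, 31 (11.7%, 95% exact interval 8.09 to 16.2) were at least 10000 bases wide, against 2.12% of the knockout list. Of 302 control peaks, 30 (9.93%, 6.80 to 13.9) were that wide, against 2.00% of the control list. Each of these wide peaks overlapped at least 1 peak of the opposite list. Nearly all wide peaks did so, since only 4 of 1559 in the whole knockout list and 4 of 1663 in the whole control list did not. Among the 31 wide knockout peaks, 8 (25.8%) overlapped 2 or more control peaks, against 39.7% of wide knockout peaks in the whole list. Among the 30 wide control peaks, 17 (56.7%) overlapped 2 or more knockout peaks, against 44.8% in the whole list. The smallest gap between peaks was 1445 bases in the knockout list and 1249 in the control list, so merging distances may have differed. The part of merging in these shares was not tested. Wide peaks of 1 gene share a chromatin domain and are not independent. The intervals cover counting error over peaks only.

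Few knockout peaks at these genes were found in the knockout list alone. Of 265 knockout peaks, 25 (9.43%, 6.20 to 13.6) overlapped no control peak, against 17.3% of knockout peaks at all protein-coding genes. Of 302 control peaks, 65 (21.5%, 17.0 to 26.6) overlapped no knockout peak, against 24.9%. The peaks here were wider than elsewhere, with medians of 2452 bases in the knockout list and 1947 in the control list, against 1686 and 1479 at all genes, and wide peaks overlap more easily. When both lists were cut at the −log10 q cutoff of 5, the order turned to 32.1% of knockout and 15.6% of control peaks, as it did at all protein-coding genes (35.0% and 24.8%). The 5 strongest knockout peaks without overlap had −log10 q values of 2.6 to 4.1 and lay in FAT1, SAV1 and, for 3 of them, STK3. After TEAD2, the strongest control peaks without overlap lay in TAOK1 (4.9 and 4.2), WWC2 (4.4) and TEAD4 (4.1).

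Around start sites both lists dipped at the start and were high on either side of it. Of the 27 genes with a promoter entry, 4 promoters (14.8%) overlapped a knockout peak and 3 (11.1%) a control peak, against 25.7% and 16.6% of all 15812 genes. Within 1000 bases of the start site, however, 18 of 27 (66.7%) had a knockout peak and 18 of 27 a control peak, against 54.7% and 52.5%. In 16 of the 27 (59.3%) both lists had one, against 46.0% of the 15812 genes. STK4 and TEAD3 qualified in the knockout list alone, and AMOTL1 and VGLL3 in the control list alone. Some of these calls lay close to the limit of 1000 bases. The nearest peaks at TEAD3 were 955 bases away in the knockout list and 1060 in the control list, and the nearest knockout peak at VGLL3 was 1066 bases away. Near the start the lists differed in both directions. At 1900 bases upstream 35.6% of bases were covered in the knockout list and 55.0% in the control list, and at 1700 bases downstream 59.0% and 44.2%. Over all genes these bins had 21.9% and 23.5%, and 40.9% and 40.5%. Other bins of the 27 genes were closer, with 55.4% and 61.2% at 1100 bases upstream and 60.1% and 62.6% at 2100 bases downstream. Coverage at the start was 7.41% of bases in the knockout list and 3.70% in the control list at the lowest, against 24.1% and 14.1% over all genes. It reached 80.3% in the knockout list at 2700 bases downstream and 73.1% in the control list at 4300 bases downstream. Over all genes the highest values downstream were 41.8% and 40.5%.

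Split by distance from the start site, the 27 genes had 93158 knockout and 97838 control bases between 1 and 5 kb, a ratio of 0.952. Between 5 and 20 kb they had 123849 and 149165 bases, a ratio of 0.83, with 6 genes higher and 17 lower in the knockout list by any number of bases, against 3277 and 5406 of 15812. Beyond 20 kb the ratio was 0.911, with 640141 and 702749 bases. At FRMD6 and WWTR1 the start site used lay 92697 and 21515 bases inside the record. All covered bases of both genes fell in this zone, 159697 knockout and 175197 control bases at FRMD6 and 75553 and 67308 at WWTR1. All protein-coding genes gave ratios of 0.908, 0.849 and 0.957 in the same zones, likewise with the lowest between 5 and 20 kb. Within 1 kb of the start the ratio was 1.14 at these genes and 1.41 over all genes, with more bases in the knockout list in both sets. At LATS2 the zone between 5 and 20 kb held 2514 knockout and 10101 control bases, and at LATS1 it held 1468 and 7233.

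**Figure D5:**
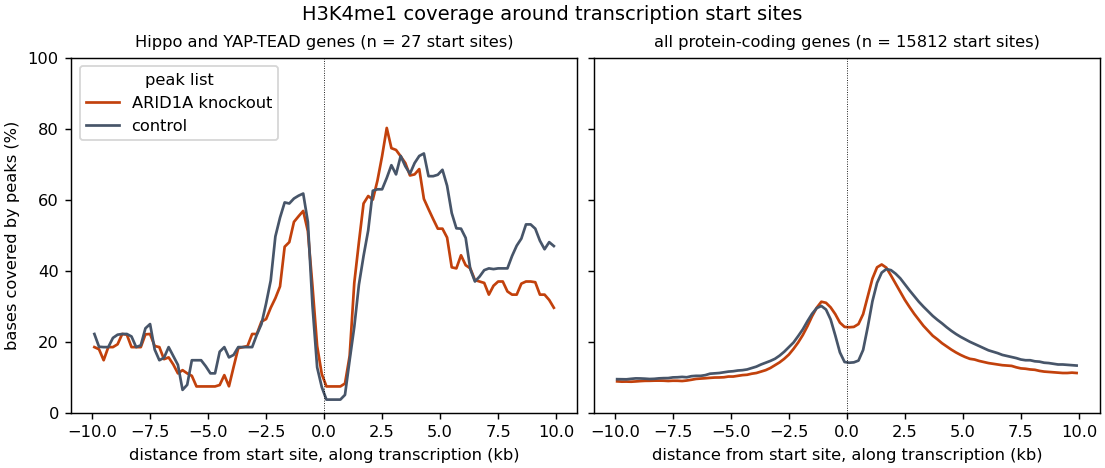
Share of bases covered by peaks (%, bins of 200 bases) from 10 kb before to 10 kb after the start site, along transcription, for 27 Hippo and YAP-TEAD genes and for 15812 protein-coding genes, with the knockout list in orange and the control list in grey. Both lists dip at the start site, to 7.41% and 3.70% at the 27 genes and to 24.1% and 14.1% at all genes. The control line runs above the knockout line at the right-hand edge, with 47.0% against 29.6% at the 27 genes and 13.3% against 11.2% at all genes.

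Of 41 further Hippo pathway genes, 11 (26.8%) had at least 1000 more covered bases in the knockout list and 14 (34.1%) had fewer, with a median difference of 0, against the 20.2% and 30.0% of all genes. MAP4K4 and TNIK, kinases related to MST, had more, MAP4K4 with 116651 knockout and 106454 control bases and TNIK with 31577 and 23711. SLMAP, a subunit of the STRIPAK phosphatase complex that opposes MST, had 54005 and 68656 bases, and ITCH, a ubiquitin ligase gene, had 31565 and 44582. Of 22 further YAP-TEAD target genes, 6 had more and 11 fewer, with a median difference of -850.5 bases. The all-gene shares are again 20.2% and 30.0%, and those of widely covered genes 32.5% and 51.7%. DLC1 had 78181 knockout and 159399 control bases and ASAP1 had 144578 and 176395, both encoding GTPase-activating proteins. DOCK5, an exchange factor gene, had 55094 and 44890 bases, and TGFB2, which encodes a TGF-beta ligand, had 58477 and 50821.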

How the data were processed

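ChIP-seq of H3K4me1 was done in MDA-MB-231 cells with and without ARID1A, and samples were grouped by title. Micrococcal nuclease cut the chromatin, per the labels' protocols. In that text the antibody is against H3K4me3, but its label and the titles give H3K4me1, the name kept here. Reads were handled with Bowtie2 2.3.5.1 and MACS2 2.2.6 on hg38, per the submitters' processing notes. The sources used here do not give settings, duplicate handling or how replicates were combined, and each list was treated as pooled. Depth is unknown.

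Per the file headers, columns of the deposited lists hold the pileup (signal), a fold over input (ratio) and −log10 q. These authors' values only described, ranked or filtered peaks inside their own list, where −log10 q was never below 1.01. Shortest peaks were 361 bases in the knockout list and 312 in the control list, and smallest gaps 1445 and 1249 bases, so fragment lengths may have differed. Peaks off chromosomes 1 to 22 and X (3 knockout, 6 control) were left out.

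Covered bases and overlaps of at least 1 base were computed with Python 3.11.15, numpy 2.4.6, pandas 2.3.3 and scipy 1.17.1 (matplotlib 3.10.9 for plots), after testing the interval functions on simulated data. Shares of peaks carry 95% exact Clopper-Pearson intervals. Local input was estimated as (pileup + 1) / fold − 1, assuming a pseudocount of 1. Start sites and promoters came from RefSeq (GRCh38.p14). Alternatives were other cutoffs, merging, windows and call rules. All 35 genes are reported. Single peaks were named if among the 5 of highest −log10 q without overlap in each list, or the widest of a role, and further lists name up to 2 genes in each direction. Other peaks were chosen after their values were seen. The genes and lists were chosen with earlier results of these data known.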

Additional observations from a re-analysis of the deposited data

How the results depend on the processing

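Counts and medians over the 35 genes, knockout list against control list, depended on the peaks admitted. At a −log10 q of at least 5, 21 genes had more and 11 fewer covered bases, and the median difference was 1838 bases, against -1039 in the full lists. With the 25000 strongest peaks of each list, chosen after seeing the data, 19 had more and the median was 1623 bases. The median was -373 bases at a fold of at least 4, -1610 with the same merging distance and shortest peak in both lists, and -2683 and -3746 with 10000 and 50000 bases on either side. Under a call of 20% of the larger coverage, 4 genes had more. The cause was not tested. Of the 27 called genes, 10 changed sign in at least 1 of 7 settings, and the share among all called genes was not computed. At a −log10 q of at least 5 these were LATS2 (1252), WWC2 (7033), FRMD6 (6662), DCHS1 (1838), TEAD1 (21774) and CCN2 (1812 bases). With the strongest peaks they were LATS2 (1252), FRMD6 (5331), DCHS1 (1838) and TEAD1 (21774 bases). At a fold of at least 4 they were STK3 (-1682), WWC2 (9373) and CCN1 (-551 bases). Without flanks TAOK2 (-287 bases) turned, and with 50000 bases AJUBA (-1915) and CCN1 (-525 bases) did. The same merging and flanks of 10000 bases turned none of the 27. Peaks without overlap were 19.6% of knockout and 33.4% of control peaks when 50% of the peak had to overlap (28.3% and 36.1% at all genes), 32.1% and 15.6% at a −log10 q of at least 5 (35.0% and 24.8%), 30.5% and 34.8% at a fold of at least 4 (40.8% and 48.7%), and 27.8% and 19.3% with the strongest peaks (30.2% and 29.9%). No paired analysis was possible because each genotype had a single deposited list, and for the same reason no replicate could be left out. Depth is unknown, which limits how far weak peaks can be read.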
